A study of Mus musculus with 24 samples.

Results

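Cholesterol and fatty acid synthesis was followed through 31 genes, most of them classical targets of the SREBP transcription factors, in mouse embryonic fibroblasts (MEFs) exposed to an oxidant, to bisphenol A, or to both. The genes were taken by name from the array's own annotation, with older synonyms (Sc4mol for Msmo1), and all 31 were on the array, as 60 of its 41174 probes and 31 of its 27962 gene names. Each gene was represented by its brightest probe over all 24 arrays, and results of further probes are given where they bear on a result in the text. The array's annotation (mouse build mm7) puts both Idi1 probes on chromosome 2 and the 3 Hmgcs1 probes on an unplaced contig, whereas RefSeq (GRCm38.p6) has both genes on chromosome 13. The RefSeq mRNA named for 2 of the Hmgcs1 probes was matched to that gene in the RefSeq table used here and the one named for the Idi1 probes was not matched, so that the identity of the Idi1 probes rests on the array's own naming.

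The cells were Ku70-/- MEFs, which lack the Ku70 (Xrcc6) subunit of the end-joining complex for DNA double-strand breaks. All 8 groups shared this deletion and none carried Ku70, so no value here can be set against cells with the protein. Each group had 3 one-color whole mouse genome arrays, in 2 sets that were processed separately. The first set (15 arrays) held untreated cells labelled 4 hr, cells given 20 mM potassium bromate (KBrO3, an oxidant that damages DNA bases) for 1 hr and harvested at 4 or 24 hr, and cells co-exposed to 20 mM KBrO3 and 150 µM bisphenol A (BPA, a plastics monomer with estrogenic activity) and harvested at 4 or 24 hr. Times run from the start of KBrO3, which was washed off after 1 hr and replaced by fresh medium for a further 3 or 23 hr. The study's methods describe this wash and fresh medium only for the groups given KBrO3. As described, KBrO3 and the medium change cannot be told apart against untreated cells or against BPA alone. In the co-exposure BPA went on 1 hr earlier and stayed on throughout. The second set (9 arrays) held untreated cells with no labelled time and cells kept in 150 µM BPA alone for 4 or 24 hr by the labels, times that the study's methods count 1 hr longer. No control was labelled 24 hr, so at that time the treatment and the hours in culture cannot be told apart.

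Cells make cholesterol from acetyl-CoA through mevalonate, farnesyl diphosphate, squalene and lanosterol, and they make fatty acids from the same acetyl-CoA through malonyl-CoA. Both routes are switched on by SREBP proteins, which sit in the endoplasmic reticulum (ER) with their escort Scap while sterols are plentiful and are held there by Insig1 and Insig2. When sterols fall, Scap carries SREBP to the Golgi, proteases release its active part, and that part binds sterol regulatory elements in the promoters of the synthesis genes, usually beside sites for NF-Y and Sp1.

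The promoters of 5 members are printed because these genes had the largest rises after KBrO3 (Hsd17b7, Cyp51, Insig1), the motif of sterol regulation (Hmgcs1), or an opposite response to a close relative (Insig2 against Insig1). RefSeq promoter sequences (GRCm38.p6) were at hand for 24 members, as 32 windows of 300 bases. Members with none were Fdft1, Fdps, Fads1, Sqle, Scd1, Scd2 and Stard4. The 250 bases before each start are shown 5′ to 3′ on the gene's strand. Capitals mark matches, on either strand, to TCACNCCAC (a sterol regulatory element), CCAAT (the NF-Y box) or GGGCGG (the GC box that Sp1 binds). The windows were chr13:119690101-119690350 on the plus strand for Hmgcs1, chr5:4104698-4104947 on the minus strand for Cyp51, chr1:169969206-169969455 on the minus strand for Hsd17b7, chr5:28071162-28071411 on the plus strand for Insig1 and chr1:121332590-121332839 on the minus strand for the most distal of the 3 Insig2 starts.
Hmgcs1: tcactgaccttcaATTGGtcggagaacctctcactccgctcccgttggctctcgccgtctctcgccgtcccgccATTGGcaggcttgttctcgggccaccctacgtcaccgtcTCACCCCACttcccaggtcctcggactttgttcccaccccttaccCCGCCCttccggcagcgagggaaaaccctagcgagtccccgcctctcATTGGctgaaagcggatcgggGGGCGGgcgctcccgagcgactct
Cyp51: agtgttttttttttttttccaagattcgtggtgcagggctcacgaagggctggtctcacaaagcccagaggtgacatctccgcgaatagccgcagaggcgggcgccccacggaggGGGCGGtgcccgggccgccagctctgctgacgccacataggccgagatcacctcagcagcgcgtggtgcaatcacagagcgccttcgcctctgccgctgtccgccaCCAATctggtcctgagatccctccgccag
Hsd17b7: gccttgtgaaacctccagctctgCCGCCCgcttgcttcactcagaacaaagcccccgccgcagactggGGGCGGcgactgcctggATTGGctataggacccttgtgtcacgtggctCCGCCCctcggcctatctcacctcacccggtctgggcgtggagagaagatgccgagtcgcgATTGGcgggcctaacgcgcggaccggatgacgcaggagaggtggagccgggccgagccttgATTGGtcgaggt
Insig1: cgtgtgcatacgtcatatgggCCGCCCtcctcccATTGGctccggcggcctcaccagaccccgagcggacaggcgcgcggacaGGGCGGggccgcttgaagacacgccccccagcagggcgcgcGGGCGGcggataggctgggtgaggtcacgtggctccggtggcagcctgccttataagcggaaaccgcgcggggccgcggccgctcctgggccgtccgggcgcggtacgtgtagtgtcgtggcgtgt
Insig2: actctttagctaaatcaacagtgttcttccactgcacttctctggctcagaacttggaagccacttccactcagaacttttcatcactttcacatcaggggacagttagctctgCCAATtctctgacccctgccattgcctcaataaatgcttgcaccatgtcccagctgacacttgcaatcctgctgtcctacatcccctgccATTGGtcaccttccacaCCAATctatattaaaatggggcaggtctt

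The sterol regulatory element was matched in 1 of the 32 windows, that of Hmgcs1, where it began 137 bases before the start, and in 1.24% of all 32851 RefSeq promoter windows. The NF-Y box was matched in 20 of 32 windows (62.5%), against 37.4% of all windows. The GC box was matched in 24 of 32 (75%), against 35.7%. By gene, 19 of 24 members had an NF-Y box and 20 of 24 a GC box in at least 1 window. The printed promoters of Hmgcs1, Cyp51, Hsd17b7 and Insig1 held both kinds, whereas that of Insig2 held NF-Y boxes and no GC box, which was matched in the 2 other Insig2 windows. A match is a run of letters and not a measured site, and the spelling searched for is only one of those that SREBP is known to bind.

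**Figure D1:**
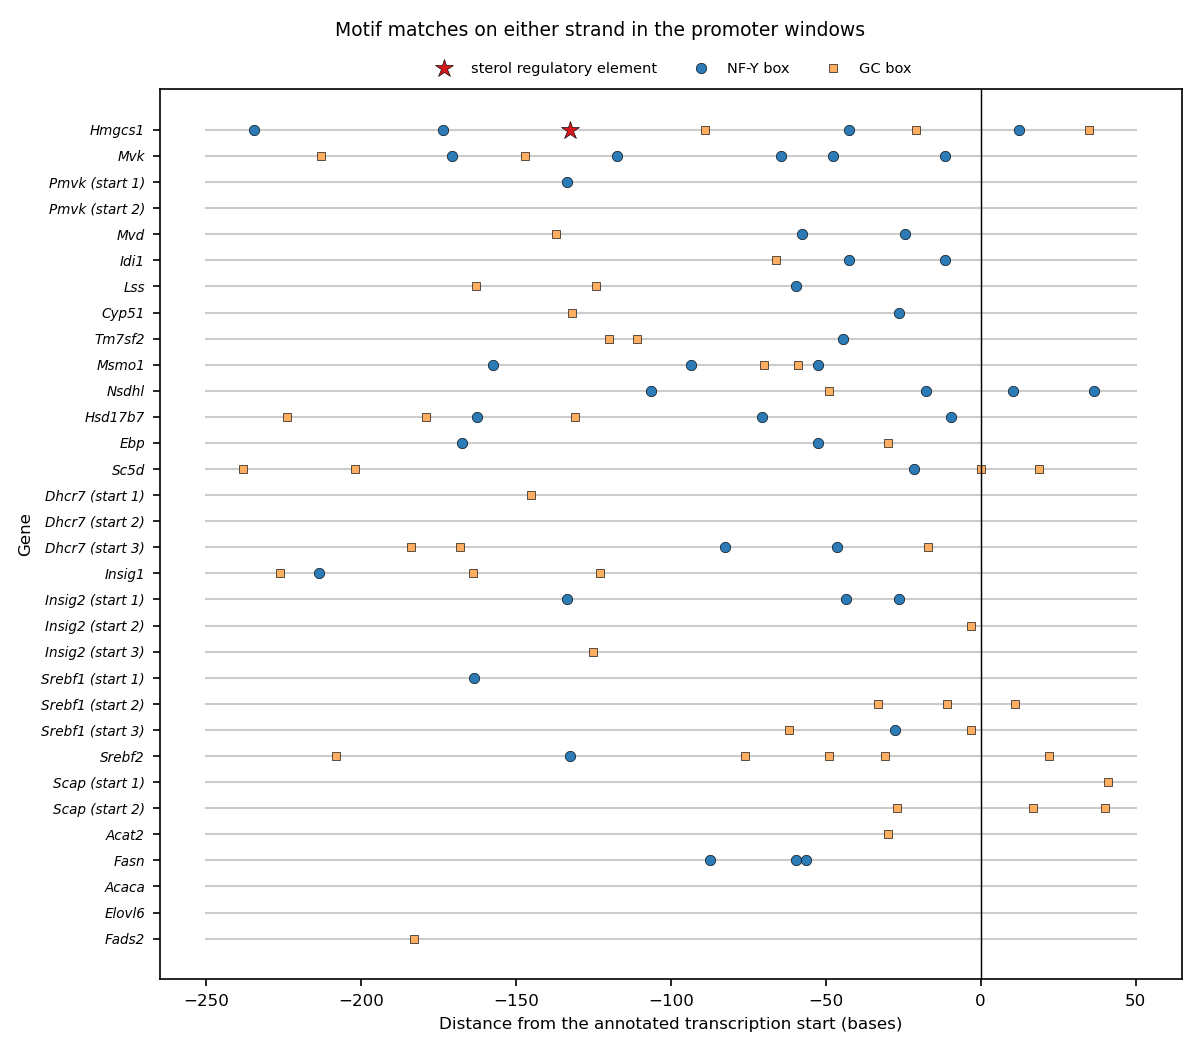
Matches to 3 motifs in the promoter windows of 24 members; the horizontal axis is the distance in bases from the annotated start, each row is 1 window, stars are the sterol regulatory element, circles the NF-Y box and squares the GC box. The single star lies in the Hmgcs1 row, and NF-Y boxes lie in 20 of the 32 rows.

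All 31 representative probes were well above background on all 24 arrays and none was saturated, so no member was lost to the filter on dim probes. Over whole arrays 57.7% to 68.1% of spots were well above background in the first set and 76.4% to 79.4% in the second, and with 3 arrays a group their number limits the precision. Levels below are log2 processed signals relative to the array's 75th percentile and are compared within a probe only. Replicates lay closer together in the first set, where the median SD of the members was 0.0658 in untreated cells, than in the second set, where it was 0.313. A member was called when limma's Benjamini-Hochberg adjusted p over all probes tested was under 0.05 and the change was beyond 1.5-fold, and "rose" and "fell" are used only for such calls. The study's methods describe the 3 arrays of a group as biological replicates, and the p-values measure the spread between them. The median SD of the members was lowest, at 0.0179, at 4 hr of KBrO3. The 3 arrays of that group all lay on the same slide, so spread between slides did not enter it. Because these are bulk RNA samples, fewer cells of a type and less RNA per cell cannot be told apart. The fibroblast label is the study's. Of the 7 fibroblast markers 6 (Col1a1, Col1a2, Col3a1, Vim, Pdgfrb and S100a4) were well above background on all 24 arrays. Thy1 was so on 10 of 15 arrays of the first set and 9 of 9 of the second. Some markers of other cell types were detected too. Among macrophage markers Cd68 was so on 15 of 15 and 9 of 9 and Csf1r on 10 of 15 and 9 of 9. Adgre1 was so on 1 of 15 and 6 of 9, and Ptprc on 0 arrays. The adipocyte marker Fabp4 was so on 15 of 15 and 9 of 9, and the epithelial marker Krt8 on 5 of 15 and 9 of 9.

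**Figure D2:**
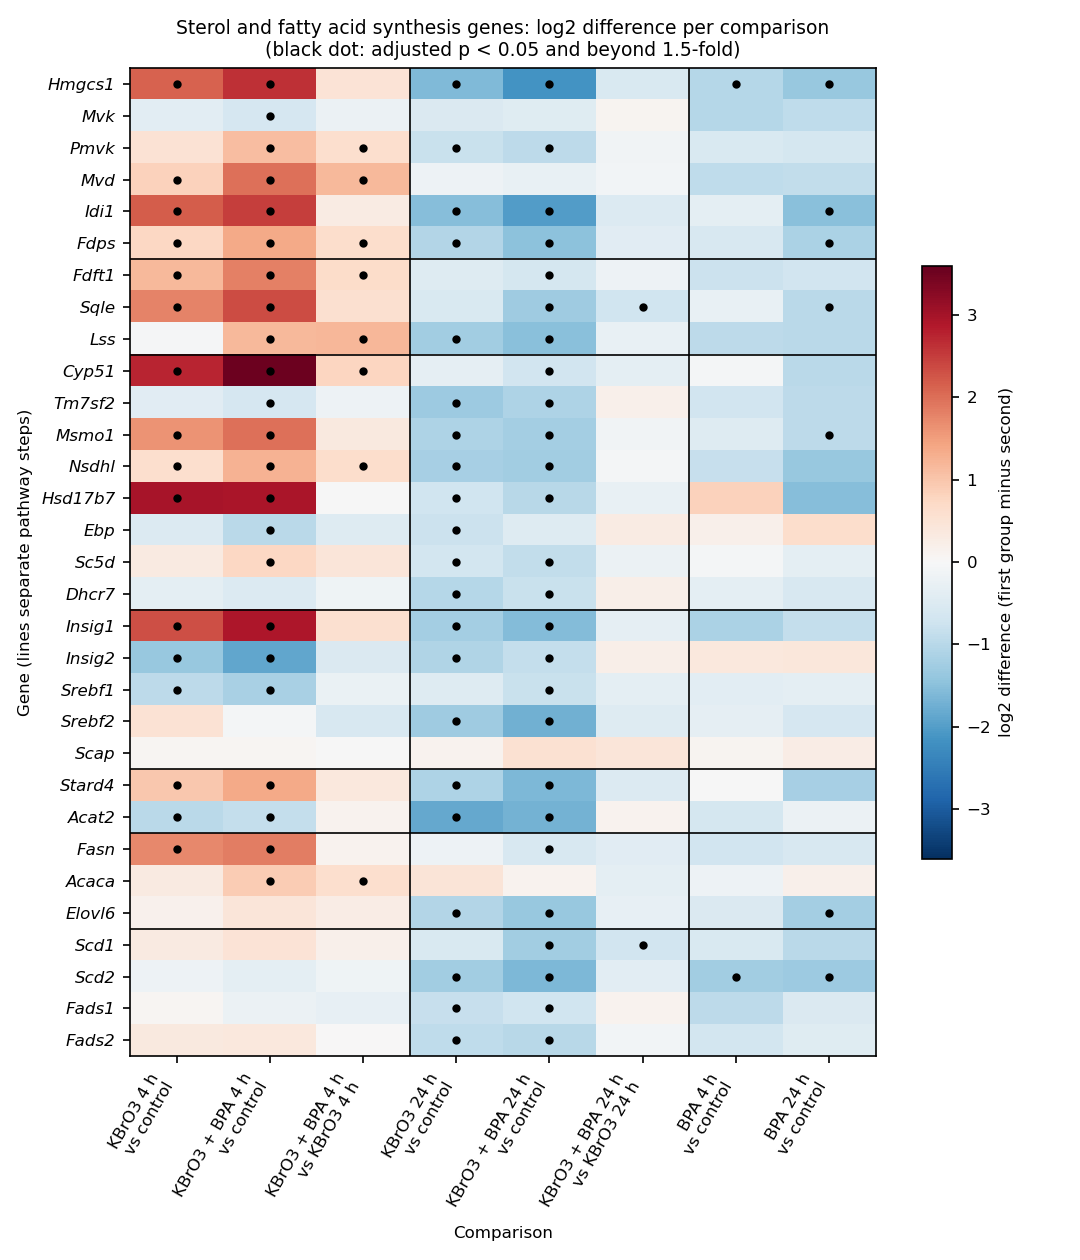
Log2 difference of each of the 31 members (rows, grouped by pathway step) in 8 comparisons (columns), with black dots on members called by limma. Most genes of the upper steps are red in the 4 hr KBrO3 and co-exposure columns, with rises up to 3.53, and blue in the 24 hr columns, with falls down to -2.15, and the BPA-alone columns hold 2 and 7 dots, all blue.

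At 4 hr after KBrO3 alone 10 of the 17 enzymes from HMG-CoA to cholesterol rose over untreated cells of the same set and 0 fell. Of all 31 members 13 rose and 3 fell, where 21.3% of all 18432 genes tested rose and 23.0% fell, so that rises were a larger share of the members than of all genes and falls a smaller one. The median difference of the members was 0.36 ± 0.0044 (SD of the members' median on each of the 3 treated arrays, set against the control mean) on the log2 scale, and that of all genes was 0.05. With the brightest RefSeq mRNA probes the median was 0.61. The largest rises were those of Hsd17b7 (the ketoreductase that helps strip the C4 methyl groups from sterols), Cyp51 (lanosterol demethylase) and Insig1. Hsd17b7 read 0.67, 0.88 and 0.83 in untreated cells and 3.75, 3.76 and 3.74 after KBrO3, a 7.76-fold rise (log2 2.96 ± 0.12 SE, limma adjusted p = 2.99e-10). Cyp51 read 0.09, -0.03 and -0.07 in untreated cells and 2.76, 2.74 and 2.73 after KBrO3, a 6.71-fold rise (log2 2.75 ± 0.08 SE, adjusted p = 2.6e-11). For both genes the 3 treated arrays nearly coincided and lay far above every untreated array.

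By step, 4 of the 6 genes from HMG-CoA to farnesyl diphosphate rose. Hmgcs1 (cytosolic HMG-CoA synthase, at the entry to the route) went from 4.50, 4.52 and 4.38 to 6.61, 6.60 and 6.59, a 4.39-fold rise (2.13 ± 0.05 SE). Idi1 (isopentenyl diphosphate isomerase) went from 3.43, 3.41 and 3.16 to 5.54, 5.50 and 5.53, a 4.56-fold rise (2.19 ± 0.11 SE). Again the treated arrays sat together above all controls. Mvd (mevalonate diphosphate decarboxylase) and Fdps (farnesyl diphosphate synthase) rose by 0.82 and 0.73, but a clone probe of Fdps fell by 1.73 and the mean of its probes measured -0.50, so the direction for Fdps turned on the probe. Pmvk (0.51) and Mvk (-0.39), the kinases between Hmgcs1 and Mvd, missed the fold limit. Of the 3 genes from squalene to lanosterol, Sqle (squalene epoxidase) and Fdft1 (squalene synthase) rose by 1.79 and 1.17, although a second Fdft1 probe was not called (0.53). Lss (lanosterol synthase) measured -0.03 by its brightest probe, while both of its RefSeq mRNA probes rose, by 1.06 and 1.14. Among the 8 genes from lanosterol to cholesterol, Msmo1 and Nsdhl of the demethylation complex rose by 1.62 and 0.61 along with Cyp51 and Hsd17b7, and Tm7sf2 (a sterol reductase that acts on the product of Cyp51), Ebp, Sc5d and Dhcr7 were not called, with differences from -0.49 to 0.31. Nsdhl was not called without control replicate 3, where its difference was 0.53.

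On the fatty acid side the response was carried by Fasn (fatty acid synthase), which rose by 1.73 ± 0.04 SE, while Acaca (acetyl-CoA carboxylase), the elongase Elovl6 and all 4 desaturases (Scd1, Scd2, Fads1, Fads2) stayed within -0.18 to 0.36 by their brightest probes and were not called. A dim RefSeq mRNA probe of Acaca rose by 0.95 (adjusted p = 0.000514). Stard4, which carries cholesterol between membranes, rose by 0.98. The 3 falls were those of Insig2 (-1.36), Srebf1 (-0.93) and Acat2 (-0.97), the cytosolic thiolase that makes acetoacetyl-CoA for Hmgcs1. Acat2 read 0.21, 0.17 and 0.30 in untreated cells and -0.65, -0.96 and -0.62 at 4 hr, so its groups did not overlap. One control array shared a slide with the KBrO3 arrays, and within that slide all 16 called members kept their sign and stayed beyond 1.5-fold, with a median difference of 0.36. With the slide as a fixed block 16 members were called again, 13 up and 3 down. Of the 4 macrophage markers the 2 that could be tested rose at 4 hr, Cd68 by 2.25 and Csf1r by 1.01, the summed log2 level of the list going from between -2.76 and -2.39 in untreated cells to between -0.675 and -0.573, and of the 3 epithelial markers Krt8 was called as higher, being well above background on 0 of 3 untreated and 1 of 3 KBrO3 arrays. Of the 7 fibroblast markers 1 fell, Pdgfrb from 4.80 to 3.20 (-1.60), 6 lay below 0, and the summed level went from between 10.5 and 10.6 to between 10.4 and 10.5. The defining leukocyte marker Ptprc was well above background on 0 arrays, and the part of such markers in these results was not tested.

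After co-exposure for 4 hr 17 of the 31 members rose and 6 fell against untreated cells, where 29.0% of all genes rose and 25.5% fell. The share of falls among members was below that of all genes, and the median of the members was 0.92 ± 0.0514 (SD over 3 arrays) against 0.05 for all genes. Cyp51 reached 3.52, 3.56 and 3.50, an 11.6-fold rise over control (3.53 ± 0.08 SE, adjusted p = 2.53e-12). Insig1 rose 7.46-fold (2.90 ± 0.04 SE), Hsd17b7 7.63-fold (2.93 ± 0.12 SE) and Hmgcs1 6.18-fold (2.63 ± 0.05 SE). All 3 genes of the squalene-to-lanosterol segment rose, and so did 5 of the 6 genes before it, with Mvk as the exception (-0.60). That Mvk fall was lost when control replicate 1, control replicate 3 or co-exposed replicate 1 was left out, its difference ranging from -0.64 to -0.56. From lanosterol to cholesterol the genes divided, with Sc5d rising by 0.76 along with Cyp51 and Hsd17b7, while Ebp (sterol isomerase) fell by 0.96 and Tm7sf2 fell by 0.60. Second probes of Fdft1 (1.60), Fdps (0.39) and Sc5d (0.24) were not called. Ebp read 5.59, 5.56 and 5.56 in untreated cells and 4.56, 4.62 and 4.64 in co-exposed cells, well apart. Acaca rose by 0.92 (RefSeq mRNA probes of it rose by 0.75 or, at 0.68 and 0.42, were not called) and Fasn by 1.84, and the 4 desaturases were again not called (-0.34 to 0.50). The co-exposed 4 hr arrays shared no slide with the controls, so treatment and slide cannot be told apart there. With the slide as a random block 23 members were called, 17 up and 6 down. The macrophage markers Cd68 and Csf1r rose here too, by 1.66 and 1.24. The epithelial marker Krt8 and the adipocyte marker Cidec were called as higher, both being well above background on 0 of 3 untreated and 3 of 3 co-exposed arrays. Of the 7 fibroblast markers 3 fell (median -0.57), their summed level going from 10.5 to 10.6 in untreated cells to 9.95 to 10.01. The part of these markers was not tested.

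**Figure D3:**
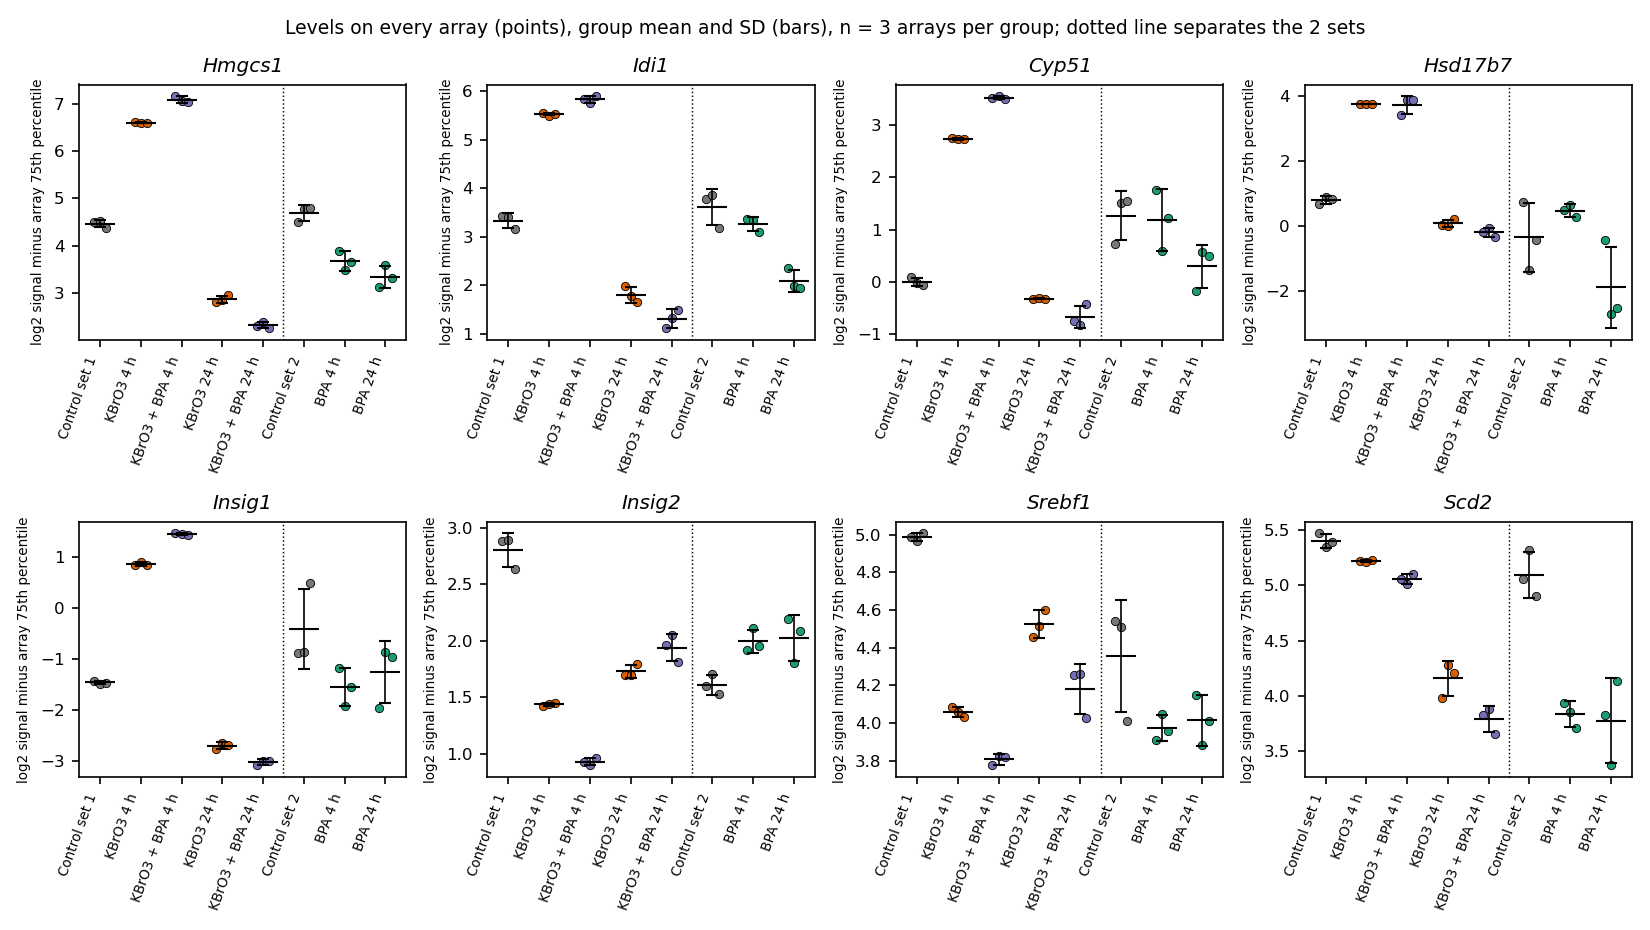
Log2 level (relative to the array's 75th percentile) of 8 members on every array, by group; points are arrays and bars are the group mean and SD. Hmgcs1, Idi1, Cyp51, Hsd17b7 and Insig1 are highest in the 4 hr KBrO3 groups and lowest of the first set in the 24 hr groups, whereas the group means of Insig2 and Srebf1 are lowest at 4 hr within the first set.

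By 24 hr the same route lay below untreated cells. After KBrO3 alone 0 of 31 members rose and 21 fell, where 12.5% of all genes rose and 20.7% fell, and the median was -0.90 ± 0.0186 (SD over 3 arrays) against -0.07 for all genes. Acat2 fell most, to -1.65, -1.64 and -1.52 (-1.83 ± 0.12 SE, 3.55-fold). Hmgcs1 fell to 2.80, 2.84 and 2.94 (-1.60 ± 0.05 SE, 3.04-fold) and Idi1 to 1.99, 1.78 and 1.65 (-1.52 ± 0.11 SE, 2.88-fold). None of these arrays reached the range of the untreated ones. A total of 7 of the 8 genes from lanosterol to cholesterol fell, among them Tm7sf2 by 1.31, Nsdhl by 1.18 and Dhcr7 by 1.02, and Cyp51 (-0.32) was the exception. These calls turned on the probe in places, since a second Cyp51 probe fell by 0.85 while second probes of Dhcr7 (-0.41) and Hsd17b7 (-0.17) were not called. Of the falls counted, Lss (-1.25) measured 0.13 and 0.05 by its RefSeq mRNA probes and Srebf2 (-1.28) measured -0.10 by one of its own, and a second Stard4 probe was not called (-0.46). Of the genes that had risen at 4 hr, Sqle (-0.56), Fdft1 (-0.46), Fasn (-0.18) and Mvd (-0.17) were not called. Mvk (-0.53), Scap (0.12) and Acaca (0.46) were not called either, although a RefSeq mRNA probe of Acaca fell by 0.72. Scd2, Fads1 and Fads2 fell by 1.24, 0.83 and 0.90, Elovl6 fell by 1.06, and Scd1 measured -0.56.

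In co-exposed cells at 24 hr 0 members rose and 26 fell, where 14.6% of all genes rose and 25.0% fell, and the median was -0.99 ± 0.101 (SD over 3 arrays) against -0.11 for all genes. Hmgcs1 read 2.30, 2.38 and 2.26, a 4.45-fold fall (-2.15 ± 0.05 SE), and Idi1 read 1.12, 1.33 and 1.5, a 4.04-fold fall (-2.01 ± 0.11 SE). Srebf2 fell 3.33-fold by its brightest probe. The members not called were Ebp (-0.48), Mvk (-0.44), Mvd (-0.26), Acaca (0.11) and Scap (0.56). A RefSeq mRNA probe of Acaca fell by 0.69, and second probes of Fasn (-0.58), Dhcr7 (-0.49) and Fdft1 (-0.48) were not called. Both falls nearest the limit rested on single arrays. Fasn (-0.59) lost its call without control replicate 1 or co-exposed replicate 1 or 3, and Fdft1 (-0.63) lost it without control replicate 3 or co-exposed replicate 3. The fibroblast markers moved with these results: 7 of 7 fell at 24 hr after both treatments, with median differences of -1.29 and -1.90, and their summed log2 level was 10.5 to 10.6 in untreated cells, 9.31 to 9.49 after KBrO3 and 8.72 to 8.97 after co-exposure. Thy1, one of them, was well above background on 10 of the 15 arrays of this set. Of 6 adipocyte markers 2 were tested, and Fabp4 fell by 1.55 and 1.86 after the treatments while Cidec, well above background on 1 of the 9 arrays compared, was not called. The summed level of that list was 5.43 to 5.62 in untreated cells, 3.94 to 4.01 after KBrO3 and 3.63 to 3.75 after co-exposure, with Plin1, Lep and Cfd well above background on 0 arrays of this set. The macrophage marker Cd68 was still raised, by 1.16 and 1.87, while Csf1r was not called, at 0.10 after KBrO3 and, well above background on 0 of 3 arrays, after co-exposure. The part of these markers in the members' falls was not tested. Neither 24 hr group shared a slide with the controls, so treatment and slide cannot be told apart, and with the slide as a random block 22 and 25 members fell.

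The step from 4 to 24 hr within a treatment needs no untreated cells, but in none of the 3 treatments did the 2 times share a slide. For KBrO3 alone no other group linked their slides, so time and slide cannot be told apart, and with the slide as a random block 25 members fell, as without it. The co-exposed times were linked through slides that also held KBrO3 24 hr arrays, and with the slide as a fixed block 1 member rose and 23 fell, again as without it. After KBrO3 alone 0 members rose and 25 fell between these times, where 19.3% of all genes rose and 28.6% fell, and the median was -1.22 against -0.14 for all genes. Hmgcs1 dropped 13.3-fold, Idi1 13.1-fold, Hsd17b7 12.8-fold and Insig1 11.8-fold. In co-exposed cells 1 member rose and 23 fell, where 21.3% of all genes rose and 36.0% fell, with a median of -1.81 against -0.24. Hmgcs1 dropped 27.5-fold (-4.78 ± 0.05 SE, adjusted p = 1.57e-14), Idi1 22.8-fold, Insig1 22.1-fold and Cyp51 18.5-fold, and the single rise was that of Insig2 (1.01). With arrays scaled to their medians 5 rose and 21 fell in co-exposed cells. Mvk, Ebp, Srebf1 and Scap were called in neither treatment. Further probes differed in places: after KBrO3 2 RefSeq mRNA probes of Acaca fell, by 1.67 and 1.00, where the brightest measured 0.15, and second probes of Fdps (0.37), Fdft1 (-1.08), Sc5d (-0.52) and Dhcr7 (-0.36) were not called. In co-exposed cells a second Dhcr7 probe fell by 0.61 and a RefSeq probe of Acaca was not called (-0.26) where its clone probe fell. Of the 7 fibroblast markers 6 fell between the times after KBrO3 (median -1.17) and 5 after co-exposure (median -1.15), their summed level going from 10.4 to 10.5 at 4 hr to 9.31 to 9.49 at 24 hr and from 9.95 to 10.01 to 8.72 to 8.97. The adipocyte marker Fabp4 fell by 1.70 and 1.47 and the macrophage marker Cd68 fell by 1.09 after KBrO3, while after co-exposure Cidec, Csf1r and the epithelial marker Krt8 were called as lower, each going from 3 of 3 arrays well above background at 4 hr to 0 of 3 at 24 hr. So did Thy1, one of the fibroblast falls. The part of these markers was not tested.

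BPA added to KBrO3 raised part of the route further at 4 hr. Against KBrO3 alone 8 members rose and 0 fell, where 12.1% of all genes rose and 8.92% fell, and the median was 0.28 (0.23 to 0.28 on the single arrays) against 0.01 for all genes. Lss read 0.79, 0.79 and 0.83 after KBrO3 and 2.04, 1.87 and 2.07 with BPA, a 2.27-fold rise (1.18 ± 0.08 SE, adjusted p = 4.6e-07). Mvd read 1.79, 1.78 and 1.78 after KBrO3 and 2.90, 3.01 and 2.92 with BPA, a 2.23-fold rise (1.16 ± 0.09 SE, adjusted p = 1.25e-06). Neither gene's groups came near each other. Cyp51 rose by 0.79, Fdft1 by 0.65, Nsdhl by 0.64, Fdps by 0.63, and Pmvk and Acaca by 0.61 each. Acaca was not called without co-exposed replicate 2, where its difference was 0.58. Second probes of Cyp51 (0.54), Fdft1 (1.06) and Nsdhl (0.31) were not called, nor were 3 RefSeq mRNA probes of Acaca (-0.54 to 0.42). A RefSeq mRNA probe of Lss was not called either (0.48), while its other RefSeq mRNA probe rose. Insig1 (0.58) and Sqle (0.56) lay just under the fold limit and Hmgcs1 measured 0.49. Hsd17b7 (-0.02), Fasn (0.11) and the desaturases (-0.29 to 0.19) were not called, and Srebf2 (-0.57), Insig2 (-0.51) and Ebp (-0.46) lay below 0 without reaching the limit. Further probes of Hmgcs1 (1.67 and 1.13), Hsd17b7 (1.24), Idi1 (0.83), Insig1 (0.77) and Sc5d (0.76) rose where the brightest were not called. These 2 groups shared no slide, so BPA and slide cannot be told apart, and with the slide as a random block 9 rose and 1 fell. With arrays scaled to their medians 3 rose (Lss, Mvd and Cyp51 kept their calls) and 3 fell, and the median was 0.14, and with one-way ANOVA or a Bonferroni p 4 rose and 0 fell. With the brightest RefSeq mRNA probes 7 rose and the median was 0.19. Of the 7 fibroblast markers 2 fell, Vim by 0.62 and S100a4 by 0.72 (median of the 7 -0.38), and the macrophage marker Cd68 fell by 0.59, its list's summed level being -0.675 to -0.573 after KBrO3 and -1.12 to -1.10 with BPA. Fabp4 (-0.53), Csf1r (0.23), Krt8 and Cidec were not called, the last of these being well above background on 0 of 3 KBrO3 and 3 of 3 co-exposed arrays. The part of these markers was not tested.

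At 24 hr BPA added to KBrO3 left 0 members higher and 2 lower, where 5.76% of all genes rose and 8.45% fell, with a median of -0.26 ± 0.0336 (SD over 3 arrays) against -0.03 for all genes. The share of members called was below that of all genes in both directions. Sqle read 2.36, 2.41 and 2.36 after KBrO3 and 1.70, 1.58 and 1.73 with BPA, a 1.63-fold fall (-0.71 ± 0.04 SE). Scd1 (stearoyl-CoA desaturase) read 1.30, 1.45 and 1.46 after KBrO3 and 0.74, 0.61 and 0.81 with BPA, a 1.6-fold fall (-0.68 ± 0.06 SE). Neither pair of groups overlapped. Further probes of 4 other members fell too, by 0.96 for Fasn, 0.73 for Hmgcs1, 0.67 for Fdps and 0.62 for Hsd17b7 (adjusted p from 9.4e-08 to 0.00486), where the brightest probes measured -0.41, -0.55, -0.42 and -0.27. On the slide that held 2 arrays of each group the differences were -0.74 for Sqle and -0.78 for Scd1. With arrays scaled to their medians both calls were lost, at -0.54 and -0.51, and the count was 1 rise and 0 falls with a median of -0.088. Of the 7 fibroblast markers 3 fell (S100a4 by 0.77, Pdgfrb by 0.61 and Thy1) and all 7 lay below 0, with a median of -0.52. The epithelial marker Krt8 was called as lower and, like Thy1, was well above background on 1 of 3 KBrO3 and 0 of 3 co-exposed arrays. The macrophage marker Cd68 rose by 0.71, while Fabp4 (-0.30), Csf1r and Cidec were not called, and the part of these markers was not tested. In a test of whether the effect of BPA on top of KBrO3 changed between the times, added after the data had been seen, 16 members had a lower effect at 24 than at 4 hr and 2 a higher one, where 15.9% and 12.1% of all genes did so. Only the share with a lower effect exceeded that of all genes. The counts moved with the processing: with arrays scaled to their medians 8 were lower and 7 higher, and with normexp, ANOVA or a Bonferroni p 11, 6 and 7 were lower and 0 higher. By the brightest probes the effect was lower for Lss (-1.44 ± 0.12 SE), Sqle (-1.27 ± 0.06 SE), Mvd (-1.25 ± 0.13 SE) and Cyp51 (-1.14 ± 0.12 SE), among others, and higher for Ebp (0.77) and Insig2 (0.72). A RefSeq mRNA probe of Lss was not called (-0.47), nor was a second probe of Insig2 (0.22), and second probes of Fdft1 (-0.997) and Nsdhl (-0.24) were not called either. Second probes of Hsd17b7 (-1.86), Fasn (-0.96) and Srebf2 (-0.62) had a lower effect at 24 hr where the brightest measured -0.24, -0.52 and 0.11, and 2 RefSeq probes of Acaca (0.74 and 0.56) were not called where the clone probe was lower (-0.95).

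BPA alone lowered a few members and raised none in the second set. At 4 hr 0 rose and 2 fell, where 2.76% of all 21446 genes tested rose and 1.46% fell, and the median was -0.56 ± 0.164 (SD over 3 arrays) against -0.02 for all genes. Scd2 (a stearoyl-CoA desaturase) read 5.05, 5.32 and 4.90 in untreated cells and 3.94, 3.86 and 3.71 with BPA, a 2.39-fold fall (-1.26 ± 0.23 SE, adjusted p = 0.0194). Hmgcs1 read 4.49, 4.78 and 4.79 in untreated cells and 3.89, 3.48 and 3.65 with BPA, a 2.02-fold fall (-1.01 ± 0.21 SE, adjusted p = 0.0286). For both genes every treated array lay below every untreated one, but the further Hmgcs1 probes were not called (-0.77 and -1.40). A clone probe of Fdps fell by 1.17. Of the 29 members not called, Insig1 (-1.13), Mvk (-1.02), Lss (-0.96), Fads1 (-0.95) and Mvd (-0.92) were furthest below 0, and Hsd17b7 (0.82 ± 0.65 SE) was furthest above it on arrays that spread widely. The count rested on single arrays: it was 0 without control replicate 2 or any 1 of the BPA arrays, 1 without control replicate 3 and 3 without control replicate 1. On the slide shared by 2 BPA arrays and 1 control Scd2 measured -1.23 and Hmgcs1 -0.72, and with the slide as a fixed block, with normexp background correction or with one-way ANOVA 0 members were called. With the slide block the median was -0.30, and with all 24 arrays in 1 fit 11 members were called.

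At 24 hr of BPA alone 0 members rose and 7 fell, where 1.5% of all genes rose and 2.16% fell, and the median of the members' mean differences was -0.88 against 0.00 for all genes. Taken on single BPA arrays the median ran from -0.81 to -0.69, so it was nearer 0 on each array than over the means. Idi1 read 3.79, 3.86 and 3.18 in untreated cells and 2.36, 1.98 and 1.96 with BPA, a 2.85-fold fall (-1.51 ± 0.23 SE, adjusted p = 0.0119). Hmgcs1 read 3.12, 3.58 and 3.31 with BPA, a 2.55-fold fall (-1.35 ± 0.21 SE, adjusted p = 0.0115), and Scd2 read 3.82, 3.37 and 4.14, a 2.48-fold fall (-1.31 ± 0.23 SE, adjusted p = 0.0191). No treated array of these genes reached an untreated one. One of the 2 further Hmgcs1 probes was not called (-1.08). The other falls were those of Elovl6 (-1.22, adjusted p = 0.00988), Fdps (-1.15), Sqle (-0.96) and Msmo1 (-0.95). The brightest probes of Hsd17b7 (-1.55 ± 0.65 SE, adjusted p = 0.249) and Nsdhl (-1.37, adjusted p = 0.0666) were as low without passing the test, while another probe of Hsd17b7 fell by 1.31 (adjusted p = 0.0237) and 2 others of Nsdhl by 1.28 and 1.46 (adjusted p = 0.0260 and 0.0387). Ebp (0.63) and Insig2 (0.41) lay above 0 and were not called. Without control replicate 2, BPA replicate 1 or BPA replicate 2 the count was 3, without BPA replicate 3 it was 4, and Hmgcs1, Idi1 and Elovl6 kept their calls in all 6 fits that left out 1 array. Each of 2 slides held 1 BPA array and 1 control, and within both all 7 called members were lower by more than 1.5-fold, with medians of -1.0 and -0.84. With the slide as a fixed block the median was -0.88 and 0 members were called, and normexp background correction or one-way ANOVA also left 0. The count was 4 with arrays scaled to their medians and 21 with all 24 arrays in 1 fit. Between 4 and 24 hr of BPA 0 rose and 1 fell, Idi1 (-1.17), where 1.06% of all genes rose and 2.92% fell, a share close to that of the members. With the slide as a fixed block, normexp, ANOVA or median scaling 0 were called. That call was kept without BPA replicate 1 at 24 hr and lost in the 5 other fits that left out 1 array, with values from -1.30 to -1.10. Second probes of Hsd17b7 (-1.47) and Srebf2 (-0.93) fell between these times as well. Of the cell type markers 1 was called with BPA alone, Thy1, which fell by 1.62 at 24 hr. All 7 fibroblast markers lay below 0 then (median -0.17), their summed level being 9.31 to 9.52 in untreated cells, 9.24 to 9.55 at 4 hr and 8.94 to 9.25 at 24 hr. The summed adipocyte level was 2.87 to 3.596 in untreated cells, 3.70 to 3.99 at 4 hr and 2.99 to 3.86 at 24 hr, and the part of the markers was not tested.

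The fitted effect of BPA at 4 hr was not the same with KBrO3, in the first set, as without it, in the second. All arrays with KBrO3 were in the first set and all arrays of BPA alone in the second, so KBrO3 and set cannot be told apart. The 4 hr groups with KBrO3 alone and with co-exposure also shared no slide. Each effect was first measured within its own set, since the sets were processed separately, and the 2 effects share no array. At 4 hr the effect with KBrO3 was higher than that of BPA alone for 12 members and lower for 1, where 5.32% and 4.52% of the 18334 genes tested in both sets were so, and the median difference between the effects was 0.79 against 0.02 for all genes. By its brightest probe Lss measured 1.18 with KBrO3 and -0.96 alone, a difference of 2.14 ± 0.26 SE (adjusted p = 0.000919). Mvd measured 1.16 with KBrO3 and -0.92 alone, a difference of 2.08 ± 0.26 SE (adjusted p = 0.000683). For both genes the value of BPA alone was below 0 but did not pass its own test. A RefSeq mRNA probe of Lss gave 1.48 and was not called (adjusted p = 0.0727), and a clone probe of Sc5d gave 2.26 (adjusted p = 0.000669) where its brightest probe was not called (0.51). Insig1 (1.71), Hmgcs1 (1.51), Nsdhl (1.47), Fdft1 (1.42), Fdps (1.20), Pmvk (1.17), Scd2 (1.10), Sqle (0.84), Msmo1 (0.82) and Elovl6 (0.79) also differed, and Insig2 differed the other way (-0.89). Second probes of Fdft1 (1.93), Insig1 (1.02) and Insig2 (-0.41) were not called. Second probes of Mvk (1.76), Idi1 (1.43), Fasn (1.19) and Hsd17b7 (1.07) differed where the brightest did not (adjusted p from 0.00583 to 0.0296). The count was 7 without control replicate 2 or control replicate 3 of the second set and 4 without BPA replicate 2 or replicate 3 at 4 hr, and Lss, Mvd, Hmgcs1 and Pmvk were called in all 12 fits that left out 1 array. With normexp background correction 1 member was called, with arrays scaled to their medians 6 and with ANOVA 0. At 24 hr the effects differed for 1 member, Elovl6 (0.91 ± 0.18 SE, adjusted p = 0.048), where 0.605% of all genes were higher and 0.807% lower, and that call was lost in 8 of 12 such fits. A second Idi1 probe also differed there (1.28, adjusted p = 0.0402), where the brightest measured 1.02 and was not called.

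**Figure D4:**
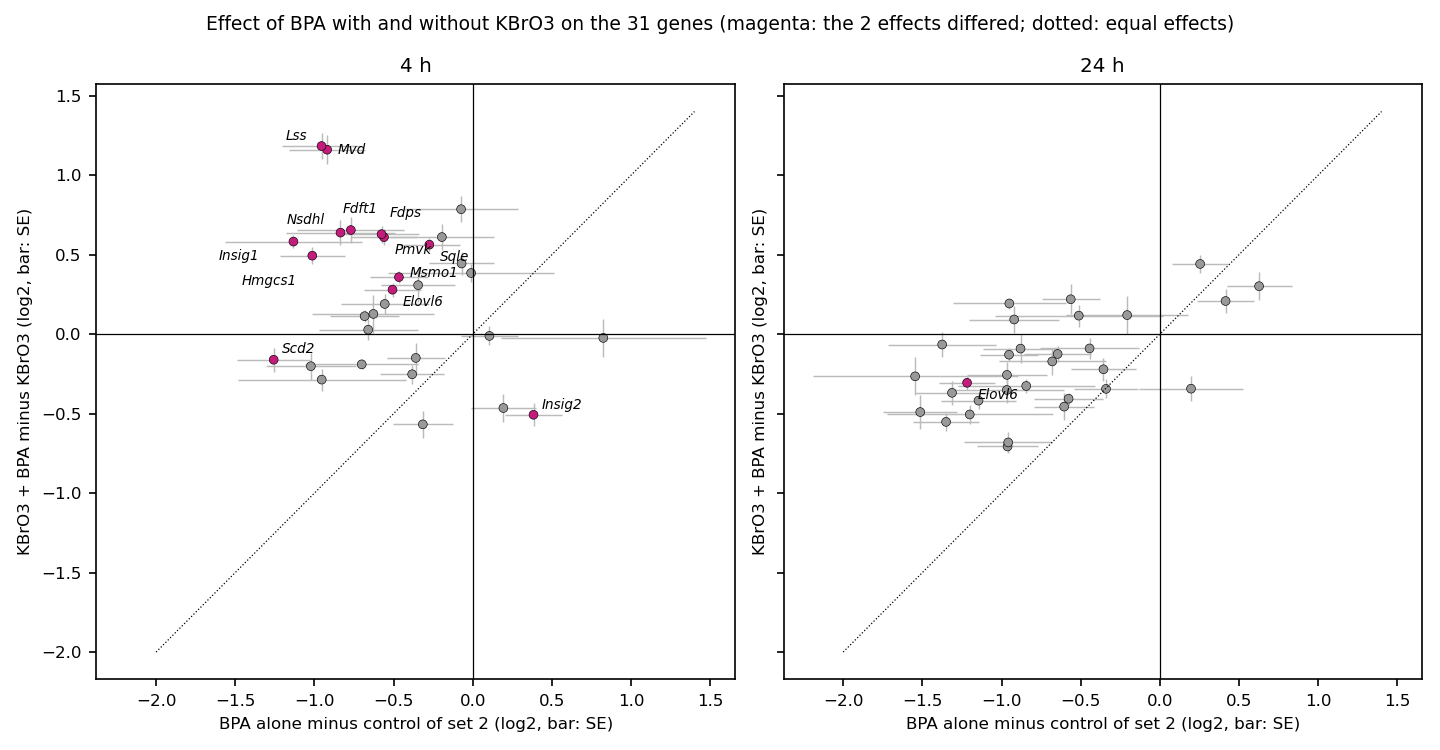
Effect of BPA on each of the 31 members with KBrO3 (vertical axis, log2 difference ± SE) against BPA alone (horizontal axis, log2 difference ± SE) at 4 hr and at 24 hr; magenta points are members whose effects differed by the test of the difference. At 4 hr 13 points are magenta, with Lss and Mvd at the upper left, and at 24 hr only Elovl6 is.

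The 5 regulators did not move as a block. Insig1 followed the enzymes: it read -1.43, -1.49 and -1.47 in untreated cells, 0.83, 0.90 and 0.84 at 4 hr of KBrO3, and -2.77, -2.64 and -2.68 at 24 hr, a rise of 2.32 ± 0.04 SE and then a fall of 1.24 ± 0.04 SE from control. With co-exposure it read 1.45, 1.44 and 1.42 at 4 hr and -3.09, -2.99 and -2.99 at 24 hr. The 5 groups of the first set stood fully apart for this gene. Insig2, its relative, went the other way at 4 hr, from 2.88, 2.89 and 2.63 in untreated cells to 1.42, 1.44 and 1.45 with KBrO3 and 0.93, 0.90 and 0.96 with co-exposure, falls of 1.36 and 1.87. At 24 hr it read 1.70, 1.70 and 1.80 after KBrO3 and 1.96, 2.05 and 1.81 after co-exposure, so it was still below untreated cells, by 1.07 and 0.86. In the second set Insig2 read 1.60, 1.70 and 1.53 in untreated cells, 1.92, 2.11 and 1.96 at 4 hr of BPA and 2.19, 1.80 and 2.09 at 24 hr, which lay above the controls without being called.

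Srebf1, which encodes the SREBP-1 factors, read 4.99, 4.97 and 5.01 in untreated cells, 4.09, 4.06 and 4.03 at 4 hr of KBrO3 and 3.78, 3.82 and 3.82 with co-exposure, falls of 0.93 and 1.18 with no overlap. At 24 hr it read 4.46, 4.52 and 4.60 after KBrO3, not called at -0.46, and 4.25, 4.26 and 4.03 after co-exposure, a fall of 0.81. Its own transcript was lower at 4 hr, when 13 (KBrO3 alone) or 17 (co-exposure) of the 31 members rose. Srebf2, which encodes SREBP-2, read 5.50, 5.47 and 5.51 by its brightest probe in untreated cells, 6.00, 6.01 and 6.00 at 4 hr of KBrO3 (0.51, not called) and 5.43, 5.42 and 5.45 with co-exposure. At 24 hr the same probe read 4.09, 4.24 and 4.30 after KBrO3 and 3.85, 3.91 and 3.52 after co-exposure, falls of 1.28 and 1.74. Scap, the escort, was called in no comparison: its differences from control ran from 0.06 to 0.56, and only the co-exposed 24 hr arrays, at 4.99, 5.02 and 4.78, lay above all others of their set. With BPA alone none of the 5 regulators was called, Srebf1 measuring -0.38 and -0.34 and Srebf2 -0.32 and -0.60 at 4 and 24 hr.

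Probes of one gene disagreed in places, and 18 members had more than 1 probe. Over 14 comparisons the further probes gave 395 results, and in 93 of them, in 17 genes, the call was not that of the brightest probe, with 1 call in the opposite direction. The 3 members whose brightest probe was designed on a cDNA clone rather than on a RefSeq mRNA were Lss, Srebf2 and Acaca. For Srebf2 (probe at chr15:82289660-82289719, array annotation on mouse build mm7) a RefSeq mRNA probe at chr15:82288730-82288789 rose at 4 hr, by 1.32 after KBrO3 and 1.33 after co-exposure, and measured -0.10 at 24 hr of KBrO3, where the clone probe fell. A dimmer RefSeq mRNA probe of the same gene rose at 4 hr, by 0.68 and 0.76, and fell at 24 hr of KBrO3, by 0.78, and a further clone probe rose by 0.70 at 4 hr of co-exposure and was not called at 24 hr of KBrO3 (-0.46). Altogether 3 of 4 Srebf2 probes rose at 4 hr of co-exposure, where the brightest measured -0.06. For Lss the clone probe lay at chr10:76212419-76212478, and at 24 hr of both KBrO3 treatments the RefSeq mRNA probes measured 0.05 to 0.13 where the clone probe fell. The higher 4 hr level of Lss with BPA added was also called by the RefSeq probe at chr10:76208898-76208957 (0.80), and the other RefSeq probe missed the limit at 0.48. The clone probe of Fdps that fell at 4 hr of KBrO3 lay at chr3:89212905-89212964. Second probes of Hmgcs1 rose by 1.67 and 1.13 with BPA added to KBrO3 at 4 hr, where the brightest probe measured 0.49, and second probes of Idi1 (0.83), Hsd17b7 (1.24) and Sc5d (0.76) rose there too. A second Fasn probe fell with BPA alone, by 1.20 at 4 hr and 1.05 at 24 hr, and a clone probe of Sc5d fell by 1.5 at 4 hr. A second Mvk probe fell at 4 hr of KBrO3 (-0.65) and of BPA alone (-1.55) and was not called at 4 hr of co-exposure (-0.45). The 3 further Nsdhl probes were not called at 4 hr of KBrO3 (0.02 to 0.52). A second Insig1 probe rose with BPA added at 4 hr (0.77), and a second Insig2 probe rose from 4 to 24 hr of KBrO3 (0.81), where the brightest measured 0.29. The 3 RefSeq mRNA probes of Acaca were dimmer than its clone probe and differed among themselves, and none was called at 4 hr of BPA added to KBrO3, where the clone probe rose.

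**Figure D5:**
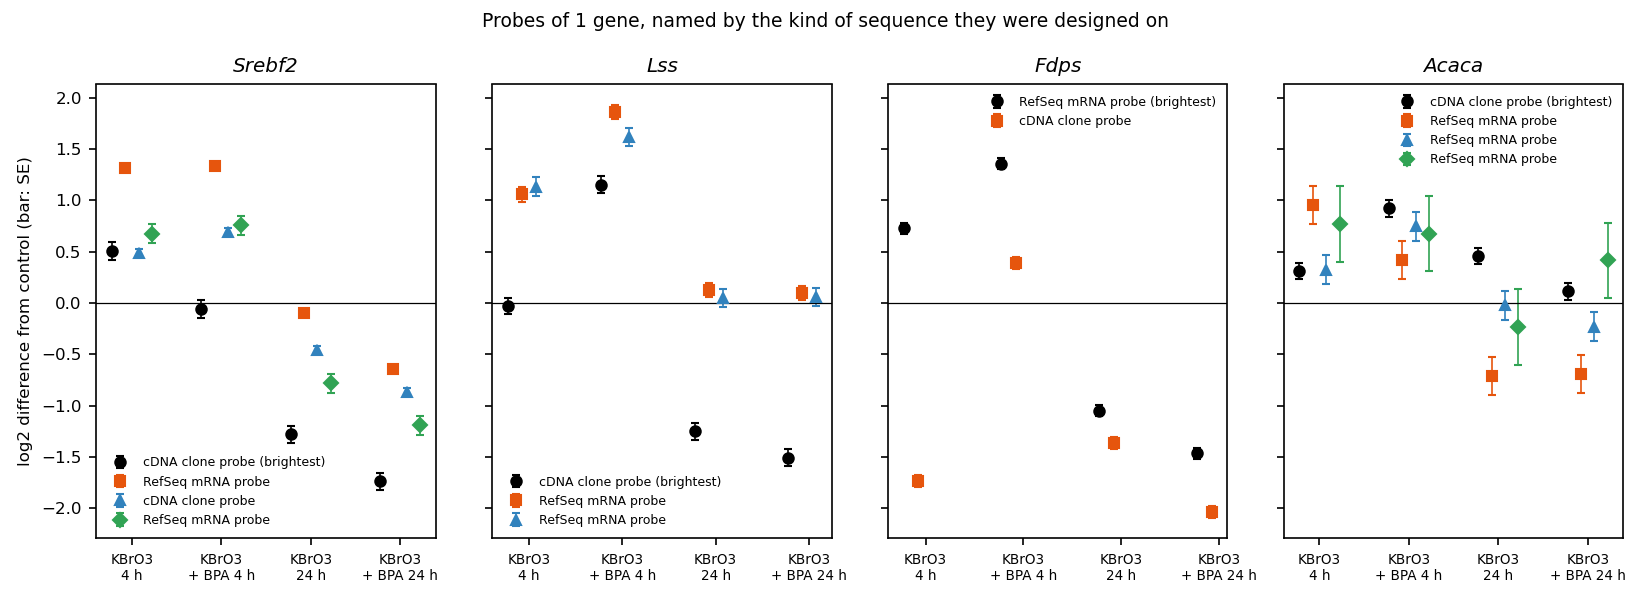
Log2 difference from control (± SE) of every tested probe of Srebf2, Lss, Fdps and Acaca in 4 treatments; symbols are probes, named by the kind of sequence they were designed on. The brightest probes of Srebf2 and Lss, both from clones, lie lowest of their gene's probes at 24 hr, and the 2 Fdps probes lie on opposite sides of 0 at 4 hr of KBrO3.

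Genes around the route were described from further lists, to be read against the 21.3% and 23.0% of all genes that rose and fell at 4 hr of KBrO3 and the 29.0% and 25.5% at 4 hr of co-exposure. The falls in these lists and the rises among the sterol efflux and SREBP processing genes were shares near or below those, except for the falls among fatty acid oxidation genes. Of 17 lipid synthesis genes outside the 31, 15 were tested in the first set, and 6 rose and 3 fell at 4 hr of KBrO3 (median -0.04). Acly (ATP citrate lyase, which makes cytosolic acetyl-CoA) rose by 1.08, Aacs by 1.08, Acsl3 (a long-chain acyl-CoA synthetase) by 1.20 and Tmem97 by 0.87, while Mid1ip1 fell by 1.26 and Acacb, the mitochondrial carboxylase, by 0.85. With co-exposure 6 rose and 1 fell (median 0.43), Aacs by 1.85 and Acly by 1.57. Of 8 genes that process or degrade SREBP and its partners, 1 rose and 1 fell at 4 hr of KBrO3, Fbxw7 (a ubiquitin ligase subunit for nuclear SREBP) by 1.15 and Erlin2 by 1.62. Mbtps1, the gene of a Golgi protease that cuts SREBP, measured -0.25 there and fell by 1.23 with co-exposure.

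Of 12 genes of sterol efflux, storage and oxysterol metabolism 11 were tested, and at 4 hr of KBrO3 1 rose and 3 fell. Abca1 (the cholesterol exporter) fell by 1.97, Nr1h3 (the sterol receptor LXR alpha) by 1.63 and Mylip by 0.81, and Ch25h (cholesterol hydroxylase, which makes an oxysterol that blocks SREBP transport) rose by 1.32. At 24 hr Ch25h had fallen by 2.81. With BPA alone Ch25h rose by 4.23 at 4 hr (adjusted p = 0.000851) and by 1.69 at 24 hr, and Cyp7b1, which breaks such oxysterols down, rose by 1.5 and 1.20. Of 10 fatty acid oxidation genes 9 were tested, and at 4 hr 0 rose and 4 fell after KBrO3, among them Cpt2 by 1.85 and Acadm by 1.51, and 0 rose and 5 fell after co-exposure.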

How the data were processed

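Total RNA of Ku70-/- MEFs was hybridised, with 1 dye, to 24 Agilent whole mouse genome arrays, 15 of them in the KBrO3 set and 9 in the set with BPA alone (the second). The authors deposited scanner output of Agilent Feature Extraction, version 9.5.3.1 in the file headers of the first set and 12.0.0.7 in those of the second, whereas the submitters' processing notes give 12.0 for all. The processed signal used here is the deposited intensity after the scanner software's background correction, on a linear scale. Processed signals of the series' value table, as deposited by the authors, were equal to the scanner values, within a relative tolerance of 1e-09, for 1080432 of 1080432 spots. Columns of other series numbered 0.

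Control spots were left out, spots of a probe were averaged, and log2 values were taken relative to each array's 75th percentile. The brightest probe by its mean over all arrays stood for a gene, which was tested if well above background on all arrays of at least 1 group of a set (18432 genes of the first set, 21446 of the second, 18334 of both). Each set was fitted with limma 3.58.1 (lmFit and eBayes, two-sided) in R 4.3.3 with no covariate, and p-values were Benjamini-Hochberg adjusted over all probes tested, of which each gene kept 1 for the counts. Calls needed an adjusted p under 0.05 and a change beyond 1.5-fold. The effects of BPA with and without KBrO3 were compared as the difference of their limma estimates, with the root of the summed squared SEs and Satterthwaite degrees of freedom. The scripts were tested on simulated data. Python 3.11.15 with numpy 2.4.6, pandas 2.3.3, scipy 1.17.1 and matplotlib 3.10.9 made the summaries and figures. Comparisons within a set that use the same control or KBrO3 arrays share them, and the values are given side by side.

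Alternatives covered background correction (normexp, on the mean signal of the KBrO3 set and the median signal of the other, where the mean signal was not used here), quantile and median scaling, the filter, the choice of probe, a one-way ANOVA with Bonferroni adjustment (without the error weights that the study's methods name, which were tried apart), the arrays in the fit, the slide and the replicate number as blocks, and each array left out. The use of the brightest RefSeq mRNA probe and the test of BPA's effect between times were added after seeing the data. All members were named, and of the remaining lists (further lipid synthesis, SREBP processing, sterol efflux, fatty acid oxidation, cell type markers) only those in the text. The members and lists were chosen with earlier results of these data known. Of 4 hepatocyte markers 0 were tested in the first set. Precision is limited by 3 arrays a group.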

Additional observations from a re-analysis of the deposited data

Results flagged for a closer look

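The results below were singled out because 2 effects of the same kind differed by a test of the difference. The difference between the effect of BPA on KBrO3-treated cells and the effect of BPA alone at 4 hr was 2.14 for Lss, 2.08 for Mvd, 1.71 for Insig1, 1.51 for Hmgcs1, 1.47 for Nsdhl, 1.42 for Fdft1, 1.20 for Fdps, 1.17 for Pmvk and 1.10 for Scd2 on the log2 scale (limma estimates, adjusted p from 0.000683 to 0.0391). In each of these genes the fitted effect was above 0 with KBrO3 and below 0 alone, except Scd2, whose effects were -0.16 and -1.26. Second probes of Lss (1.48), Fdft1 (1.93) and Insig1 (1.02) were not called for this difference. The 2 effects come from separate sets with different scanner software versions, so KBrO3 and set cannot be told apart in these differences.

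The effect of BPA on KBrO3-treated cells was lower at 24 hr than at 4 hr by more than 1 log2 unit for 6 genes, a comparison added after seeing the data. The change was -1.44 for Lss, -1.27 for Sqle, -1.25 for Mvd, -1.14 for Cyp51, -1.05 for Hmgcs1 and -1.05 for Fdps (limma adjusted p from 5.5e-08 to 1.53e-05). At 4 hr the effect was 1.18 for Lss and 0.56 for Sqle, and at 24 hr it was -0.26 and -0.71. A RefSeq mRNA probe of Lss was not called for this change (-0.47). The 4 hr group given KBrO3 alone lay on a slide with none of the other 3 groups of this comparison, so BPA's effect at 4 hr and slide cannot be told apart.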

How the results depend on the processing

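Results were recomputed under 18 alternatives, where the design allowed each (the fixed slide block only for groups linked by slides), and in 24 fits that left out 1 array. Under the alternatives called members kept their direction and stayed past the threshold in 2930 values, missed the threshold with the same direction in 278 and reversed in 5, and with 1 array left out 1220 stayed and 94 missed it. The reversals were all set by the probe used: Fdps at 4 hr of KBrO3 was -0.50 as the mean of its probes, and by the brightest RefSeq mRNA probe Lss was 0.13 at 24 hr of KBrO3 and 0.10 at 24 hr of co-exposure, while Acaca was -0.54 with BPA added to KBrO3 at 4 hr and 0.56 in the change of that effect between times. Counts moved under more of the alternatives for BPA alone than for BPA added to KBrO3. Scaling moved the median of all genes by more than 0.1 in places: normexp by -0.47 and -0.46 at 4 hr and by -0.37 and -0.32 at 24 hr of KBrO3 and co-exposure, by -0.35 at 24 hr of BPA and by -0.38 between BPA times, quantile normalization by 0.21 and 0.24 between times of KBrO3 and co-exposure, and median scaling by 0.32 at 24 hr of co-exposure, 0.46 between its times and 0.31 for the change of the BPA effect. Where no cause is named, the cause was not tested.

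With BPA alone at 4 hr the number of members called (2) was 0 with normexp, with one-way ANOVA, with a Bonferroni p and with the slide as a fixed block, 1 with median scaling or only the 2 groups fitted, 6 with the mean of a gene's probes and 11 with all 24 arrays in 1 fit, and its median was -0.30 with the slide as a fixed block. At 24 hr of BPA alone (7) it was 0 with normexp, ANOVA, Bonferroni, 2 groups or the fixed slide block, 4 with median scaling and 21 with all 24 arrays, and the median was -0.77 with median scaling. Between BPA times (1) it was 0 with normexp, median scaling, ANOVA, Bonferroni or the fixed slide block, 2 with quantile normalization, the mean of probes or the RefSeq probe and 6 with all 24 arrays. The BPA effects with and without KBrO3 at 4 hr (13) differed for 1 member with normexp, 6 with median scaling and 0 with ANOVA or Bonferroni, and at 24 hr (1) for 0 with normexp, median scaling, no filter, ANOVA, Bonferroni or 2 groups, 3 with the mean of probes, 4 with quantile normalization and 8 with all 24 arrays. BPA added to KBrO3 at 4 hr (8) gave 4 with ANOVA or Bonferroni and 24 without a fold limit, and at 24 hr (2) 1 with median scaling or ANOVA, 4 with quantile normalization and 21 without a fold limit. The single call with median scaling was a rise. The change of that effect between times (18) gave 11 with normexp, 6 with ANOVA and 7 with Bonferroni. KBrO3 at 4 hr (16) gave 28 without a fold limit.

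The median of the members at 4 hr of KBrO3 (0.36) was 0.52 with normexp, 0.24 with quantile normalization, 0.35 with the slide as a random block, 0.39 with the mean of probes and 0.61 with the RefSeq probe. At 24 hr (-0.90) it was -0.69, -0.75 with median scaling, -0.96, -0.78 and -0.81 in that order. For co-exposure at 4 hr (0.92) it was 1.04 with normexp, 0.78 with median scaling, 0.69 with the mean of probes and 1.12 with the RefSeq probe, and at 24 hr (-0.99) -0.80 with normexp and -0.68 with median scaling. With BPA added to KBrO3 at 4 hr (0.28) it was 0.32 with quantile normalization or the random slide block, 0.14 with median scaling and 0.19 with the RefSeq probe, and at 24 hr (-0.26) -0.21 with normexp, -0.088 with median scaling, -0.13 with the mean of probes and -0.17 with the RefSeq probe.

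With 1 array left out the count ran from 0 to 3 at 4 hr and 3 to 5 at 24 hr of BPA alone, 0 to 2 between BPA times, 4 to 13 and 0 to 2 for the BPA effects with and without KBrO3 at 4 and 24 hr. The median ran from 0.32 to 0.40 at 4 hr and -0.95 to -0.88 at 24 hr of KBrO3, 0.84 to 1.01 at 4 hr of co-exposure, -0.91 to -0.71 at 24 hr of BPA and -0.26 to -0.20 with BPA added to KBrO3 at 24 hr. The remaining counts stayed within 1.5 times.

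Arrays of the same number in different groups did not deviate together, with a mean correlation of -0.029 over the KBrO3 set and 0.0020 over the BPA-alone set, so the numbers name arrays and do not pair them. With the number as a replicate block the calls were 0 at 4 hr and 3 at 24 hr of BPA alone, and 7 and 0 for the BPA effects with and without KBrO3, while the other counts stayed within 1.5 times (16 at 4 hr of KBrO3).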
